A study of Mus musculus with 36 samples.

Results

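Messenger RNA was compared between mouse duodenal organoids that received pulses of DAPT with a period of 130 min for 72 h and organoids kept with DMSO, the solvent, for the same time. All 3 libraries labelled with that period and duration and all 3 DMSO libraries of 72 h were taken, 6 of the 36 libraries in the series, and every expressed gene was considered. The series asked how altering the rhythm of Notch signalling shifts the cell types of the intestinal epithelium, with periods of 90, 130 and 170 min and durations of 24, 48 and 72 h. DAPT blocks gamma-secretase and was given at 2 µM. Whether DMSO was pulsed in the same way is not stated.

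In both groups the organoids came from the duodenum of C57BL/6 mice, male or virgin female and older than 8 weeks, and were grown in ENR medium, which supplies EGF, Noggin and R-spondin 1. They had been passaged 1 day before the 72 h experiment, were held in a microfluidic chip under a flow of 200 µl per h, and 20 to 50 organoids were pooled in each sample. Such organoids are epithelium without the stroma, vessels or immune cells of the intestine. Nothing in the labels says whether the replicates were separate cultures or mice, so p-values measure only the spread between these samples. The source of that spread is not stated.

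Notch receptors are cut by gamma-secretase when a neighbouring cell presents a ligand such as Dll1, Dll4 or Jag1, and the freed intracellular part acts with Rbpj to switch on Hes1. In the intestinal crypt, cells with active Notch stay stem cells or become absorptive enterocytes, and cells without it express Atoh1 and become secretory, that is Paneth, goblet, enteroendocrine or, by a related route, tuft cells. After injury or when enterocytes are lost, the epithelium can also take up a fetal-like programme in which the coactivator YAP works with TEAD factors at genes such as Clu, Anxa1 and Ly6a.

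The libraries of 130 min pulses held 610977, 1023096 and 762361 counts in replicates 1 to 3, and the DMSO libraries 713138, 1117763 and 957412. Each count is a molecule tagged with a barcode, and levels below are in CPM, counts of a gene scaled to a common library size after TMM normalisation. Epithelial markers were high in all 6 libraries, with Epcam at 457, 365 and 483 CPM after 130 min pulses and at 455, 408 and 396 CPM with DMSO. The duodenal factor Gata4 stood at 208, 140 and 192 CPM after pulses, against 180, 166 and 180 CPM with DMSO. Immune genes gave 23 counts and endothelial genes 15 counts in the 3 pulsed libraries together, against 27 and 19 counts in the 3 DMSO libraries.

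The replicates stood apart within both groups before any comparison was made. Transcripts of the 4 Y-linked genes Ddx3y, Eif2s3y, Kdm5d and Uty summed to 1.76, 11.6 and 370 CPM in the 130 min libraries, from 1, 12 and 270 counts. In the DMSO libraries they summed to 133, 106 and 7.40 CPM, from 91, 119 and 7 counts. High and low levels thus occurred on both sides, with the highest in replicate 3 of the pulses. Xist, the RNA that coats a silenced X chromosome, had 0 counts in the 3 pulsed libraries and 0, 1 and 0 counts with DMSO. The share of counts from mitochondrial genes was 1.37%, 0.962% and 1.28% after pulses and 1.14%, 0.867% and 1.06% with DMSO. Where the Y-linked transcripts moved with a cell type, the fit that takes them as a covariate is given beside the result. Among the 36 libraries of that fit, however, a low Y-linked level did not mark 1 kind of library. Replicate 3 of 130 and of 170 min pulses at 24 h had 1.68 and 4.03 CPM, but 56 and 140 counts of Xist. The covariate may therefore miss part of the difference between replicates.

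The 130 min libraries also resembled each other less than the DMSO libraries did. Over the 11462 genes tested, the correlation of log2(CPM + 1) was 0.871 to 0.914 among pulsed libraries, 0.887 to 0.941 between a pulsed and a DMSO library, and 0.949 to 0.959 among DMSO libraries. The median standard deviation of a gene on that scale was 0.272 after pulses and 0.186 with DMSO, and it ran from 0.158 to 0.305 over the 12 groups of the series. An SD above 1 was found for 774 genes after pulses (6.75%) and for 225 with DMSO (1.96%).

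No gene passed the threshold of 0.05 in either direction. By edgeR's quasi-likelihood test on all 36 libraries with Benjamini-Hochberg adjustment, 0 genes passed as higher and 0 as lower (each 0% of those tested), and the smallest adjusted p was 0.286. At an unadjusted p under 0.05 there were 1179 genes (10.3%), 630 higher (5.50%) and 549 lower (4.79%), and DESeq2 gave 917 with 0 passing and a smallest adjusted p of 0.0594. In 840 genes (7.33%) all 3 pulsed libraries lay above all 3 DMSO libraries, and in 871 (7.60%) they all lay below. Such shares are the background against which the gene groups below are read. In a simulation of this comparison, 21.0% of genes changed 1.5-fold and 57.0% of genes changed 2-fold were recovered. In the data themselves 311 genes had a log2 difference above 1 and 264 one below -1, and 0 passed. The simulated shares may therefore be too high for these libraries. Whether the simulated libraries spread as widely as the pulsed ones was not tested.

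The call of 0 did not hold under every setting. When only these 6 libraries were fitted, 12 genes passed as higher and 6 as lower, of 10079 tested. That fit has only 4 residual degrees of freedom, against 24 in the fit of all 36 libraries. Among those higher were Antxr2, Anxa10, Areg, Capn2, Emp1, Epha2, Gml, H1f2, Il1rn, Msln and Slc7a11, and those lower were Adh4, Aldoc, Aoc1, Asah2, Grhpr and Neu3. With every gene that had a count kept, 23 passed as higher and 29 as lower, and 4 genes were shared with the fit of 6 libraries.

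The genes with the smallest p-values on the higher side are described first, and none of them passed. Egfr, the receptor for EGF and amphiregulin, stood at 86.2, 87.2 and 78.2 CPM after 130 min pulses, against 39.5, 47.1 and 51.8 CPM with DMSO, a log2 difference of 0.85 (SE 0.21). Rras2, a small GTPase of the Ras family, stood at 236, 215 and 229 CPM after pulses, against 157, 157 and 165 CPM with DMSO, a log2 difference of 0.50 (SE 0.12). Ralgapb, a subunit of the complex that turns off Ral GTPases, stood at 130, 128 and 136 CPM after pulses, against 82.0, 102 and 94.1 CPM with DMSO, a log2 difference of 0.49 (SE 0.11). In each of these genes the pulsed libraries lay close together and above every DMSO library. Cxadr, an adhesion molecule of tight junctions, had a log2 difference of 0.51 (SE 0.14). The linker histone gene H1f2 stood at 155, 131 and 176 CPM after pulses, against 65.9, 76.5 and 71.9 CPM with DMSO, a log2 difference of 1.09 (SE 0.28). Histone genes are near-identical copies, so its counts may be shared with others. Other higher genes were Tsc22d2, Rnf11, a ubiquitin ligase of the RING type, Tm4sf4, a membrane protein, and BC016579, with log2 differences of 1.08, 0.55, 0.66 and 0.98.

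On the lower side the genes of smallest p-values included Aldoc, Grhpr and Asah2. Aldoc, an aldolase of glycolysis, stood at 72.1, 53.3 and 76.8 CPM after 130 min pulses, against 205, 163 and 217 CPM with DMSO, a log2 difference of -1.55 (SE 0.38). Grhpr, which reduces glyoxylate, stood at 47.5, 41.7 and 45.3 CPM after pulses, against 87.9, 90.7 and 99.4 CPM with DMSO, a log2 difference of -1.06 (SE 0.27). Asah2, the neutral ceramidase of the brush border, stood at 66.9, 71.7 and 74.1 CPM after pulses, against 117, 141 and 179 CPM with DMSO, a log2 difference of -1.04 (SE 0.25). In all 3 genes the highest pulsed library was well under the lowest DMSO library. Mvk, the mevalonate kinase of cholesterol synthesis, had a log2 difference of -0.80 (SE 0.20), and Agmat, which splits agmatine, one of -1.20 (SE 0.30). The glutathione transferase genes Gstm7 and Gstz1 had log2 differences of -1.08 and -0.59, and Gstm7 has close relatives that could share its counts. Narf, Flvcr1, a transporter, and 2310001H17Rik had log2 differences of -1.55, -0.59 and -0.73. All 20 genes with the smallest p-values, 10 in each direction, had an adjusted p of 0.286 by edgeR's quasi-likelihood test with Benjamini-Hochberg adjustment. Of the 20, 4 passed in the fit of the 6 libraries alone and 12 with no filter.

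**Figure D1:**
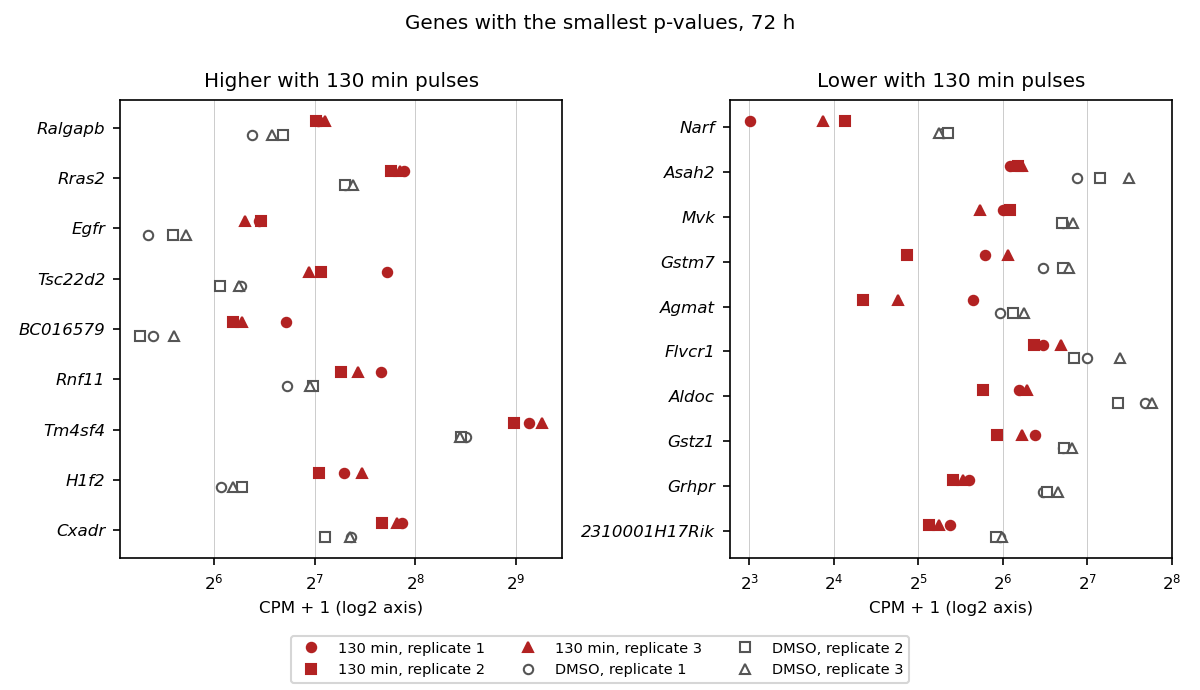
CPM + 1 on a log2 axis for the higher and lower genes named in the text that had the smallest p-values among those whose groups did not overlap. Each row is a gene, filled symbols are the 3 libraries of 130 min pulses, open symbols the 3 DMSO libraries, and the symbol shape gives the replicate. The genes were chosen for this separation, and Asah2 shows pulsed libraries at 66.9 to 74.1 CPM below DMSO libraries at 117 to 179 CPM.

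The fetal-like and YAP target genes stood higher after 130 min pulses as a group. Of the 29 symbols listed, 2 are older names of other members, 27 were in the table and 26 had enough counts to be tested. All 26 had a positive log2 difference, and their median was 0.87 beside 0.01 over all genes tested. In 15 of the 26 (57.7%) every pulsed library lay above every DMSO library, beside the 7.33% of all genes, and in 0 they all lay below. None passed over all genes. At an unadjusted p under 0.05, 12 of the 26 were higher, beside 5.50% of all genes. In the fit of the 6 libraries alone 4 members passed as higher, where 12 of all 10079 genes tested did.

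Secreted and surface proteins were among the leading members. Areg, the EGF receptor ligand amphiregulin, stood at 343, 241 and 358 CPM after pulses, against 168, 141 and 173 CPM with DMSO, a log2 difference of 0.96 (SE 0.29). Il1rn, the interleukin 1 receptor antagonist, stood at 206, 236 and 246 CPM after pulses, against 99.6, 112 and 117 CPM with DMSO, a log2 difference of 1.06 (SE 0.34). Msln, a surface protein of mesothelium and some epithelia, stood at 387, 556 and 495 CPM after pulses, against 187, 205 and 226 CPM with DMSO, a log2 difference of 1.22 (SE 0.42). For these 3 genes every pulsed library lay above every DMSO library, with replicate 2 lowest for Areg and replicate 1 for Il1rn and Msln. Anxa3 and Anxa2, calcium-dependent membrane-binding proteins, had log2 differences of 0.79 (SE 0.21) and 0.49 (SE 0.17), also with no overlap.

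Other members differed in the same direction but mainly through replicate 2 of the pulses. Clu, the secreted chaperone that marks the regenerating state, stood at 327, 626 and 309 CPM after pulses, against 253, 215 and 306 CPM with DMSO, a log2 difference of 0.73 (SE 0.37). Anxa1, a fetal epithelium marker, stood at 285, 472 and 221 CPM after pulses, against 193, 178 and 229 CPM with DMSO, a log2 difference of 0.72 (SE 0.38). Ankrd1, a direct YAP target, stood at 14.1, 78.5 and 21.9 CPM after pulses, against 17.6, 11.6 and 13.7 CPM with DMSO. Replicate 2 was the highest library for all 3 genes, Clu was just above DMSO in the other pulsed libraries, and Anxa1 and Ankrd1 overlapped. Without replicate 2 the list still had 15 members above every DMSO library, with 14.0% of all genes doing so in that smaller comparison, and its median was 0.44. The number was 15 to 21 of 26 with any of the 6 libraries left out, while the background was 10.9% to 14.2%. With the Y-linked level as a covariate all 26 remained positive, with a median of 0.82.

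Promoter windows from RefSeq, on build GRCm38.p6 and from 250 bases before to 50 after an annotated start, were searched on both strands for GGAATG, the TEAD motif, and TGANTCA, the AP-1 motif. Of the 26 tested members, 18 had a window in the table, 22 windows in all. The TEAD letters were in 8 of them (36.4%) and the AP-1 letters in 7 (31.8%), beside 12.3% and 5.21% of the 11190 windows of tested genes, and 14.7% and 7.81% of the 32851 windows of all genes. Motif matches are letters in a window and not measured binding. The list was drawn up to hold YAP targets, and YAP works with TEAD factors. Its share of TEAD letters may therefore follow from the choice of genes, and says nothing about these samples. A gene with more than 1 annotated start counts once for each window. Below are the windows of 4 members that lay above every DMSO library, had a single annotated start and held a match, to show where it falls: Anxa2 at chr9:69453433-69453732 on the plus strand, F3 at chr3:121723287-121723586 on the plus strand, Sprr1a at chr3:92485832-92486131 on the minus strand, and Amotl2 at chr9:102717554-102717853 on the plus strand. Each is written 5′ to 3′, with matches in capitals, which are the AP-1 letters in the first 3 and the TEAD letters, on the opposite strand, in Amotl2.
Anxa2: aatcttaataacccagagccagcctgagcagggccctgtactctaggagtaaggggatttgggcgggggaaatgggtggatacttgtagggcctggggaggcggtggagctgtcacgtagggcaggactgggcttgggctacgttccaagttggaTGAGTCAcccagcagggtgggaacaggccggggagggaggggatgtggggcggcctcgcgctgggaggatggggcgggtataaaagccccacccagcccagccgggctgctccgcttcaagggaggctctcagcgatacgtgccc
F3: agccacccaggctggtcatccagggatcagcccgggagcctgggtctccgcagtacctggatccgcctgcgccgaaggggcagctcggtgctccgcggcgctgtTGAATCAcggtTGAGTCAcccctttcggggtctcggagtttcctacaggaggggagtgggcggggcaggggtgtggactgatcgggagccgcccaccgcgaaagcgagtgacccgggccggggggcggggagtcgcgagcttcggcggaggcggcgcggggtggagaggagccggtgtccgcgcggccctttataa
Sprr1a: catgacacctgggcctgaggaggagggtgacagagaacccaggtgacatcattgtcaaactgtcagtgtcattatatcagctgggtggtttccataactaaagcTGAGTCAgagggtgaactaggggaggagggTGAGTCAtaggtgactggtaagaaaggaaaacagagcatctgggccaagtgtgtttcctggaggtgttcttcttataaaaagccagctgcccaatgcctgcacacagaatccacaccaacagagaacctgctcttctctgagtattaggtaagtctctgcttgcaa
Amotl2: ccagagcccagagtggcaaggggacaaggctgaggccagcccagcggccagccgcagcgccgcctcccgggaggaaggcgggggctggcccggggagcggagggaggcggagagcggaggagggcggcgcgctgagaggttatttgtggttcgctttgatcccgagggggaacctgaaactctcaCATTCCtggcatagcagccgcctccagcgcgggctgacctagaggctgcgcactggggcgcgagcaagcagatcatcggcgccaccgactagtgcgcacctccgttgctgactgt
F3, the tissue factor that starts clotting, stood at 38.7, 98.9 and 85.0 CPM after pulses, against 24.9, 22.2 and 15.9 CPM with DMSO, a log2 difference of 1.86 (SE 0.63). Amotl2, an angiomotin that binds YAP, stood at 40.5, 74.6 and 35.7 CPM after pulses, against 26.4, 34.7 and 20.1 CPM with DMSO. Sprr1a, a cornified envelope protein, stood at 125, 158 and 150 CPM after pulses, against 104, 82.7 and 118 CPM with DMSO. Among windows searched but not shown, that of Plaur held the AP-1 letters, and those of Areg, S100a6, Cd44 and Krt7 held neither motif. Among these and the 4 shown, only Amotl2 held the TEAD letters. The windows of the immediate early genes held the AP-1 letters in 0 of 14, and those of the p53 targets in 1 of 30.

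Immediate early genes, transcription factors and regulators switched on within minutes of growth factor or stress signals, were also higher after pulses. Of 21 listed, 17 were tested, 16 were positive with a median of 0.44, and in 9 (52.9%) every pulsed library lay above every DMSO library. Fosl2, an AP-1 subunit, stood at 118, 115 and 132 CPM after pulses, against 107, 72.9 and 78.2 CPM with DMSO, a log2 difference of 0.52 (SE 0.17). Junb, another, stood at 125, 149 and 163 CPM after pulses, against 101, 109 and 114 CPM with DMSO, a log2 difference of 0.44 (SE 0.15). Atf3, a stress-induced factor, stood at 125, 51.4 and 61.7 CPM after pulses, against 26.4, 32.9 and 26.4 CPM with DMSO, a log2 difference of 1.41 (SE 0.51). Atf3 was highest in replicate 1, while Fosl2 and Junb were highest in replicate 3, and the groups did not overlap for any of them. Ier3, which modulates survival signals, had a log2 difference of 0.86 (SE 0.34). Jun itself stood at 148, 147 and 204 CPM after pulses, against 163, 168 and 137 CPM with DMSO, and overlapped. None of the 17 passed over all genes. Leaving out any library left 9 to 11 above every DMSO library, beside 10.9% to 14.2% of all genes.

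Targets of p53, the factor that halts growth or kills cells after DNA damage, showed a smaller difference in the same direction. Of 30 listed, 29 were tested, with a median of 0.39, 10 members (34.5%) above and 3 (10.3%) below every DMSO library. Gdf15, a secreted stress signal, stood at 58.1, 61.1 and 48.0 CPM after pulses, against 26.4, 24.0 and 24.3 CPM with DMSO, a log2 difference of 1.17 (SE 0.33). Bax, which opens the mitochondrial membrane in apoptosis, stood at 56.3, 90.1 and 57.6 CPM after pulses, against 35.1, 44.5 and 43.4 CPM with DMSO, a log2 difference of 0.74 (SE 0.26). Ccng1 and Trp53inp1 had log2 differences of 0.50 (SE 0.16) and 0.97 (SE 0.31). Cdkn1a, the p53-induced inhibitor of cell cycle kinases, stood at 424, 300 and 280 CPM after pulses, against 306, 207 and 302 CPM with DMSO, and its groups overlapped. The members that lay lower throughout were Trp53i11, Fas and Xpc. None of the 29 passed over all genes.

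The cell cycle lists stood close to all genes. The median was 0.02 over 32 S phase genes and 0.02 over 40 genes of G2 and M phase, with 3 and 2 members above every DMSO library, or 8 and 9 without replicate 3 of the pulses, where 12.7% of all genes lay above. Mki67, which marks dividing cells, had a log2 difference of 0.14 (SE 0.13).

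In the response to oxidative stress, 3 of the 13 genes tested (23.1%) lay above every DMSO library and 1 (7.69%) below. Over all genes the shares were 7.33% above and 7.60% below. Hmox1, which breaks down haem, stood at 10.6, 30.0 and 19.2 CPM after pulses, against 1.46, 5.34 and 7.40 CPM with DMSO, a log2 difference of 2.02 (SE 0.60). Slc7a11, the cystine transporter, stood at 280, 221 and 247 CPM after pulses, against 145, 133 and 161 CPM with DMSO, a log2 difference of 0.76 (SE 0.27), and it passed in the fit of the 6 libraries. Gclc, which makes the precursor of glutathione, had a log2 difference of 0.47 (SE 0.15). The metallothionein gene Mt2 was lower, at 287, 195 and 458 CPM after pulses, against 502, 548 and 603 CPM with DMSO, a log2 difference of -0.83 (SE 0.32). The median of the list was 0.06, close to the 0.01 over all genes.

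Enterocyte genes were lower after pulses, mostly through replicate 2. Of 30 listed, 29 were tested, 26 had a negative log2 difference, and the median was -0.57. In 9 (31.0%) every pulsed library lay below every DMSO library, beside 7.60% of all genes, and in 1 they all lay above. The mean log2(CPM + 1) over the members was 6.54, 4.70 and 6.92 after pulses and 6.85, 6.98 and 7.09 with DMSO, so that replicate 2 stood far below the other 5 libraries. In bulk samples fewer cells of a type and less RNA per cell cannot be told apart.

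Apoa1, an apolipoprotein of lipid absorption, stood at 315, 56.2 and 381 CPM after pulses, against 458, 450 and 481 CPM with DMSO, a log2 difference of -0.92 (SE 0.49). Fabp1, a fatty acid carrier, stood at 215, 31.0 and 244 CPM after pulses, against 253, 262 and 247 CPM with DMSO, a log2 difference of -0.70 (SE 0.50). Sis, the sucrase of the brush border, stood at 526, 82.4 and 392 CPM after pulses, against 414, 390 and 576 CPM with DMSO, a log2 difference of -0.50 (SE 0.45). In each of the 3 genes replicate 2 was several times lower than any other library, and the other pulsed libraries were below the DMSO libraries for Apoa1 and Fabp1 and among them for Sis. Treh and Mep1a, a disaccharidase and a peptidase of the brush border, were low in all 3 pulsed libraries, with Mep1a at 31.7, 17.4 and 27.4 CPM after pulses, against 45.4, 46.3 and 71.9 CPM with DMSO. Dpp4, another peptidase, had a log2 difference of -0.48 (SE 0.24). Apob, the core protein of chylomicrons, was the member higher throughout, at 179, 115 and 132 CPM after pulses, against 71.8, 82.7 and 104 CPM with DMSO, a log2 difference of 0.68 (SE 0.28). Without replicate 2 the median was -0.16 and the same number, 9, lay below every DMSO library, against 14.1% of all genes. Without replicate 3 it was -0.96 and 15 lay below, where 13.9% of all genes did. The part of that library in the result beyond these values was not tested.

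Antimicrobial genes of the villus bottom were lower with a larger median. All 7 listed genes were tested, with a median of -1.10 and 4 (57.1%) below every DMSO library. Reg3g, a lectin that kills Gram-positive bacteria, stood at 96.8, 51.4 and 26.1 CPM after pulses, against 152, 133 and 203 CPM with DMSO, a log2 difference of -1.55 (SE 0.44). Nlrp6, an inflammasome sensor, stood at 141, 42.6 and 132 CPM after pulses, against 220, 166 and 183 CPM with DMSO, a log2 difference of -0.92 (SE 0.26). Reg1 stood at 299, 114 and 355 CPM after pulses, against 442, 527 and 775 CPM with DMSO, a log2 difference of -1.21 (SE 0.47). Replicate 2 was the lowest for Nlrp6 and Reg1 and replicate 3 for Reg3g, and the groups did not overlap for any of them. Reg3a, with a log2 difference of -1.54 (SE 0.81), is a close relative of Reg3g and Reg3b, among which counts could be shared. Without replicate 2 the median was -0.54 and 4 of 7 still lay below, where 14.1% of all genes did.

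Drug-metabolising enzymes, a feature of mature enterocytes, showed the same dependence on replicate 2. Of 25 tested, 7 (28.0%) lay below every DMSO library, with a median of -0.18. Ces1f, a carboxylesterase, stood at 77.4, 23.3 and 82.3 CPM after pulses, against 103, 113 and 162 CPM with DMSO, a log2 difference of -1.14 (SE 0.44). Ugt2b36, a glucuronosyltransferase, had a log2 difference of -0.87 (SE 0.31). Without replicate 2 the median was 0.12, so the direction of the median turned on that library. Then 7 members lay above and 7 below every DMSO library, beside 14.0% and 14.1% of all genes. Without replicate 3 the median was -0.57 and 12 lay below, where 13.9% of all genes did.

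Nt5e, a surface enzyme that makes adenosine and marks the villus tip, was high after pulses. It stood at 84.5, 15.5 and 117 CPM after pulses, against 2.93, 1.78 and 6.34 CPM with DMSO, a log2 difference of 4.23 (SE 1.27). Even the lowest pulsed library was above the highest DMSO library. Of the 9 villus tip genes tested, 3 lay above every DMSO library (Egfr, Nt5e and Neat1) and 1, the apolipoprotein Apoa4, below, so members stood on both sides. The median of 0.58 was 0.07 without replicate 3.

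**Figure D2:**
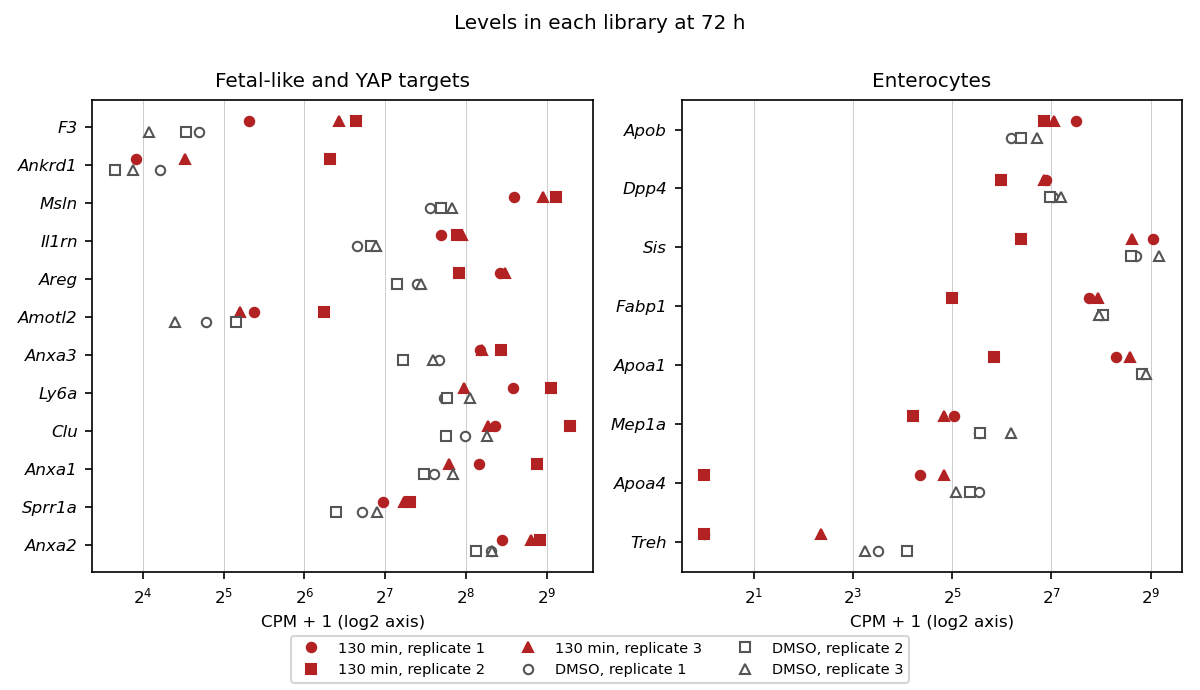
CPM + 1 on a log2 axis for the fetal-like and YAP target genes and the enterocyte genes named in the text, ordered by log2 difference. Filled symbols are libraries of 130 min pulses and open symbols DMSO libraries, with the shape giving the replicate. For most enterocyte genes the filled square, replicate 2, lies far to the left, as for Apoa1 at 56.2 CPM, while fetal-like genes such as Il1rn have all 3 filled symbols to the right of the open ones.

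Genes of hypoxia and glycolysis and of cholesterol synthesis included members that were lower in every pulsed library. Of 23 hypoxia and glycolysis genes tested, 5 (21.7%) lay below every DMSO library and 0 above, with a median of -0.17. Pfkl, a phosphofructokinase, stood at 15.8, 28.1 and 24.7 CPM after pulses, against 77.6, 46.3 and 57.1 CPM with DMSO, a log2 difference of -1.32 (SE 0.44). Egln3, an oxygen sensor that is itself induced by hypoxia, stood at 19.4, 62.0 and 43.9 CPM after pulses, against 127, 73.8 and 113 CPM with DMSO, a log2 difference of -1.22 (SE 0.45). Pdk1, a pyruvate dehydrogenase kinase, had a log2 difference of -0.70 (SE 0.30), and Ankrd37 one of -3.10 (SE 1.34). For Ankrd37 the DMSO libraries themselves ranged over 63.0, 7.12 and 16.9 CPM. The count was 12 without DMSO replicate 2, where 10.5% of all genes lay below. That was the DMSO library with the lowest score of this list. The median ran from -0.36 without replicate 1 of the pulses to -0.05 without replicate 3.

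Of 24 cholesterol synthesis genes tested, 5 (20.8%) lay below every DMSO library and 0 above, with a median of -0.15. Besides Mvk, Dhcr7, which catalyses the last step of the pathway, stood at 68.6, 42.6 and 68.6 CPM after pulses, against 108, 84.5 and 94.1 CPM with DMSO, a log2 difference of -0.70 (SE 0.22). Without replicate 1 of the pulses 11 of 24 lay below, where 13.8% of all genes did, and without DMSO replicate 1 the median was -0.06. None of these genes passed over all genes.

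Genes of the Notch pathway had a median log2 difference of 0.13 over the 6 tested, 4 positive and 2 negative. Of these, 1 (16.7%) lay above every DMSO library and 0 below. Hes1, the main Notch target of the crypt, stood at 366, 296 and 362 CPM after pulses, against 382, 316 and 316 CPM with DMSO, a log2 difference of 0.01 (SE 0.13). Rbpj overlapped between groups, as did the receptor gene Notch2, and Jag1, a ligand, was above every DMSO library at 95, 133 and 94.6 CPM, against 89.3, 86.3 and 88.8 CPM. Another ligand gene, Jag2, stood at 104, 92.1 and 48.0 CPM after pulses, against 55.6, 49.8 and 55.0 CPM with DMSO, a log2 difference of 0.60 (SE 0.29). Of the 12 genes listed, 6 had too few counts to be tested, Notch1, Hes5 and Nrarp among them. The samples do not give the time since the last pulse.

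With all 6 libraries, secretory progenitor and stem cell genes separated the groups at shares near those of all genes. Atoh1, the factor of the secretory fate, stood at 58.1, 74.6 and 102 CPM after pulses, against 83.5, 96.1 and 76.1 CPM with DMSO, a log2 difference of -0.12 (SE 0.22), and Dll1, the ligand of secretory precursors, had one of -0.35 (SE 0.23). The 11 progenitor genes tested had a median of -0.11, with 1 member (9.09%) above and 0 below every DMSO library. Lgr5, the stem cell receptor for R-spondin, stood at 127, 73.7 and 195 CPM after pulses, against 186, 151 and 131 CPM with DMSO, a log2 difference of -0.26 (SE 0.31). The 18 stem cell genes had a median of -0.17, with 2 (11.1%) below and 0 above. Without replicate 3 the progenitor median was -0.34, with 3 of 11 (27.3%) below every DMSO library and 1 above. In the same setting 5 of 18 stem cell genes (27.8%) lay below and 0 above, where 13.9% of all genes lay below. Without replicate 1, 5 of 18 stem cell genes again lay below and 1 above, where 13.8% of all genes lay below. Without replicate 2 the stem cell median was -0.02.

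The differentiated secretory types differed among the pulsed replicates more than between the groups. The enteroendocrine score, a mean of log2(CPM + 1) over 21 hormone and granule genes, was 1.90, 1.80 and 5.73 after pulses and 3.90, 3.91 and 2.38 with DMSO. Chga, a granule protein of these cells, stood at 3.52, 3.88 and 167 CPM after pulses, against 38.1, 37.4 and 6.34 CPM with DMSO. Sst, which encodes somatostatin, stood at 0, 0 and 125 CPM after pulses, against 32.2, 10.7 and 2.11 CPM with DMSO. Replicates 1 and 2 of the pulses lay below every DMSO library and replicate 3 above, so 0 of 21 genes separated the groups. The median of 0.96 was -2.15 without replicate 3, and 8 of 21 genes (38.1%) then lay below every DMSO library, where 13.9% of all genes did.

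The Y-linked transcripts were also highest in replicate 3 of the pulses and, among DMSO libraries, lowest in replicate 3. With the Y-linked CPM as a covariate the median was 0.16, and with its log2 it was 0.77, and 0 genes passed in either fit. Their part in the result beyond these fits was not tested.

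Paneth cell genes showed a related pattern. The score over 16 genes was 6.16, 6.49 and 7.56 after pulses and 7.28, 7.15 and 7 with DMSO, again with replicates 1 and 2 below and replicate 3 above every DMSO library. Ang4, an antimicrobial ribonuclease, stood at 95, 186 and 387 CPM after pulses, against 299, 281 and 241 CPM with DMSO. Wnt3, the Wnt ligand that Paneth cells supply to stem cells, was lower in all 3, at 17.6, 10.7 and 19.2 CPM after pulses, against 22.0, 26.7 and 25.4 CPM with DMSO, a log2 difference of -0.69 (SE 0.32). Nupr1 went the other way but overlapped, at 252, 73.7 and 214 CPM after pulses, against 71.8, 62.3 and 98.3 CPM with DMSO. Lyz1 overlapped too, at 222, 212 and 1230 CPM after pulses, against 726, 617 and 299 CPM with DMSO, and so did Defa24. Of the 16 genes, 4 had a positive log2 difference and 12 a negative one. In all, 3 of 16 (18.8%) lay below every DMSO library, and 12 of 16 (75.0%) did without replicate 3, where 13.9% of all genes did. The median was -0.27 with all 6 libraries, -0.87 without replicate 3, 0.01 without replicate 1 and -0.16 without replicate 2. With the Y-linked CPM as a covariate it was -0.38, with 1 of 16 positive, and with its log2 it was -0.23. Defensin genes are near-identical copies, and their counts could be split between them.

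Goblet cell genes had a median of -0.18 over 22, with 3 (13.6%) below and 1 above every DMSO library. Without replicate 3 the median was -0.39 and 11 of 22 (50.0%) lay below, where 13.9% of all genes did. The member above was Sytl2, a regulator of vesicle transport, with a log2 difference of 0.70 (SE 0.24). Only 10 of 24 tuft cell markers had enough counts to be tested. Avil, an actin-binding protein of the tuft cell bundle, stood at 118, 35.9 and 43.9 CPM after pulses, against 7.32, 14.2 and 16.9 CPM with DMSO, a log2 difference of 2.26 (SE 0.75). The median of the 10 was 0.74, and -0.21 without replicate 3, and with the Y-linked CPM or its log2 as a covariate it was 0.52 or 0.78. Dclk1, a kinase that marks tuft cells, overlapped, at 3.52, 0.969 and 27.4 CPM after pulses, against 1.46, 3.56 and 2.11 CPM with DMSO.

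**Figure D3:**
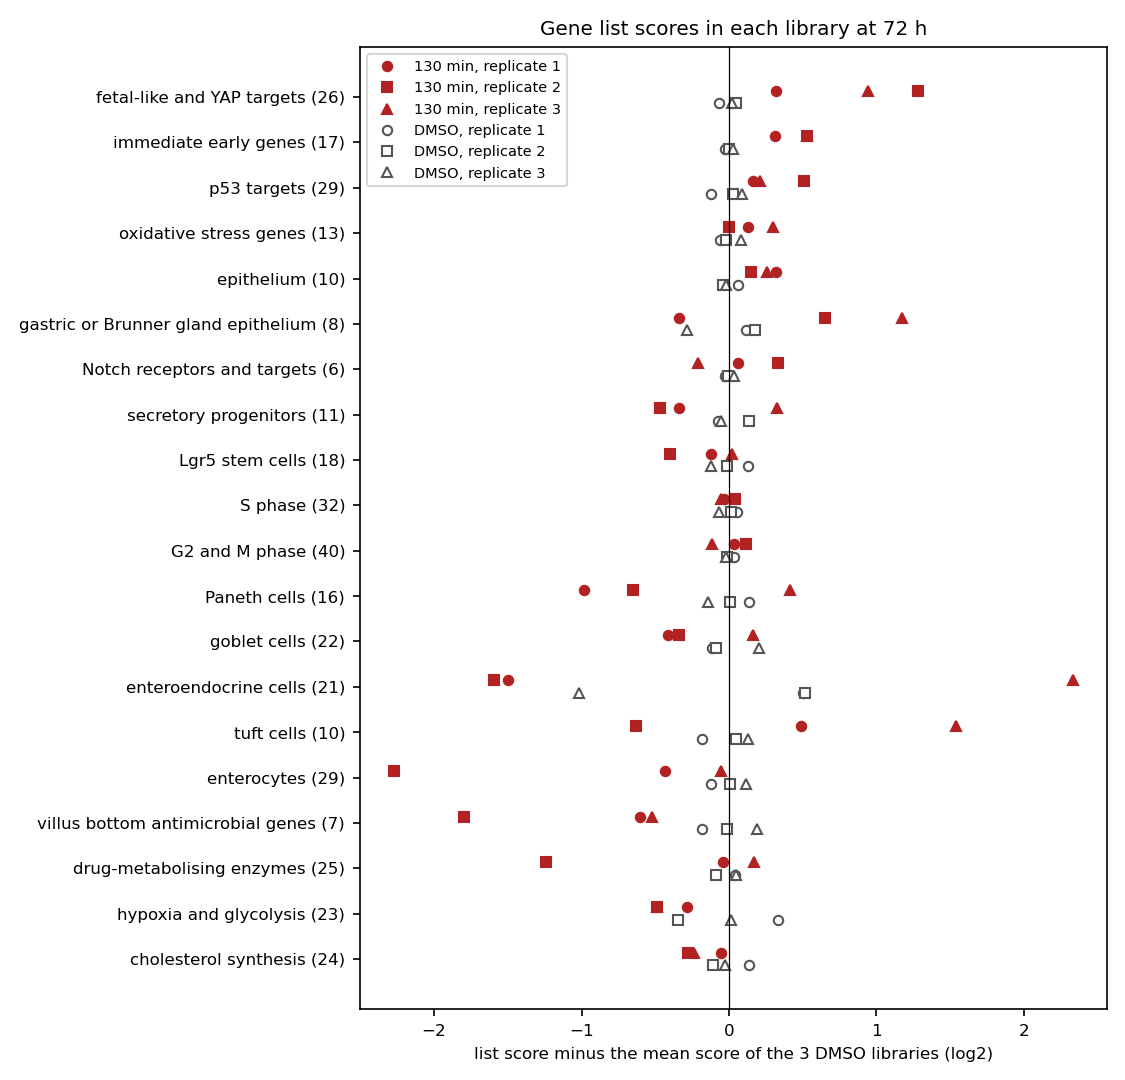
Score of 20 gene lists in each library, averaged as log2(CPM + 1) across those of its members that were tested (their number is in brackets), minus the mean of the 3 DMSO libraries. Filled symbols are libraries of 130 min pulses and open symbols DMSO libraries, with the shape giving the replicate. The fetal-like, immediate early and p53 lists have all filled symbols to the right of the open ones, the enterocyte list has replicate 2 far to the left, and the enteroendocrine list has replicate 3 far to the right with replicates 1 and 2 to the left.

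General epithelial genes stood slightly higher after pulses, with 10 of 10 positive, a median of 0.22 and 4 (40.0%) above every DMSO library, or 8 without replicate 2, where 14.0% of all genes lay above. Among the 4 was Ezr, which links actin to the brush border membrane, at 501, 441 and 436 CPM after pulses, against 341, 317 and 336 CPM with DMSO, a log2 difference of 0.47 (SE 0.13). Krt18, a keratin of simple epithelia, was at 445, 629 and 409 CPM after pulses, against 324, 343 and 334 CPM with DMSO. Other lists had few members that separated the groups with all 6 libraries. Of the 11 interferon response genes and 14 inflammatory genes tested, 0 lay above and 0 below every DMSO library. Heat shock genes had 1 of 11 above, genes of the unfolded protein and integrated stress responses 1 of 25, genes of fatty acid oxidation 1 of 21 above and 1 below, Wnt targets 1 of 12 above and 1 below, M cell genes 1 of 7 above, and BMP targets 1 of 4 above. Cytosolic ribosomal protein genes had a median of -0.06 with 3 of 41 below, or 10 without replicate 1 of the pulses, where 13.8% of all genes lay below. Of the 7 mitochondrially encoded genes tested 0 separated the groups, with a median of 0.28, but 6 lay above without replicate 2, with a median of 0.45. Likewise 5 of 11 heat shock genes lay above without replicate 1, and 6 of 25 genes of the unfolded protein and integrated stress responses and 5 of 21 of fatty acid oxidation without replicate 2, where 14.2% and 14.0% of all genes did. Only 2 of 11 fibroblast genes had enough counts to be tested.

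Genes of gastric or Brunner gland epithelium were high in 2 of the pulsed libraries. Of 12 listed, 8 were tested, with a median of 1.27, 2 (25.0%) above and 1 (12.5%) below every DMSO library. The list score was 4.65, 5.64 and 6.16 after pulses and 5.10, 5.16 and 4.70 with DMSO, so replicate 1 was the lowest of the 6 libraries. Anxa10, an annexin of stomach epithelium, stood at 686, 684 and 911 CPM after pulses, against 397, 428 and 398 CPM with DMSO, a log2 difference of 0.90 (SE 0.24). Tff1, a trefoil peptide of the stomach surface, stood at 114, 195 and 320 CPM after pulses, against 67.4, 73.8 and 53.9 CPM with DMSO, a log2 difference of 1.70 (SE 0.58). Gkn2, a gastrokine, stood at 0, 4.85 and 125 CPM after pulses, against 1.46, 6.23 and 0 CPM with DMSO. Anxa10 and Tff1 were higher in every pulsed library, while Gkn2 was high in replicate 3 alone, and without that library the median of the list was 0.49. Tff2, a trefoil peptide of Brunner glands, was at 0 in replicate 3, at 31.7 and 71.7 CPM in the other 2 pulsed libraries and at 32.2, 50.7 and 51.8 CPM with DMSO.

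Each pulsed library had genes of its own, described here without a test. In replicate 1 they included Ifit1, an interferon-induced gene at 56.3 CPM, where the other pulsed libraries had 9.69 and 1.37 CPM and DMSO libraries 10.3, 24.9 and 27.5 CPM. Trib3, a gene of the integrated stress response, stood at 125, 6.78 and 65.8 CPM after pulses, against 20.5, 23.1 and 23.3 CPM with DMSO. The 4 predicted genes led by Gm10801 were also highest in replicate 1, at 1300, 321 and 395 CPM after pulses, against 227, 302 and 450 CPM with DMSO for Gm10801, and such sequences can be repeated in the genome. The same library was lowest for the basement membrane collagen gene Col4a1, at 1.76, 58.2 and 35.7 CPM after pulses, against 10.3, 5.34 and 11.6 CPM with DMSO. Col4a2 and Serpinb6b had the same order, so that replicates 2 and 3 stood above and replicate 1 near or below DMSO.

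Replicate 2 was set apart by Cryab, a small heat shock protein gene, which stood at 17.6, 96.9 and 17.8 CPM after pulses, against 4.39, 13.3 and 14.8 CPM with DMSO. Its lowest genes included Apoa4, at 19.4, 0 and 27.4 CPM after pulses, against 45.4, 40.0 and 32.8 CPM with DMSO. Replicate 3 was set apart by the hormone genes Sst, Gip, Cck, Ghrl and Chga together with the Y-linked Eif2s3y, the transcription factor gene Pitx1 and Tstd1. Pitx1 stood at 0, 0 and 60.4 CPM after pulses, against 36.6, 27.6 and 1.06 CPM with DMSO, with its 3 highest libraries the same as those of the Y-linked genes. Mtus2 had the reverse order within the pulsed group, at 49.3, 89.2 and 0 CPM after pulses, against 33.7, 59.6 and 64.5 CPM with DMSO.

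**Figure D4:**
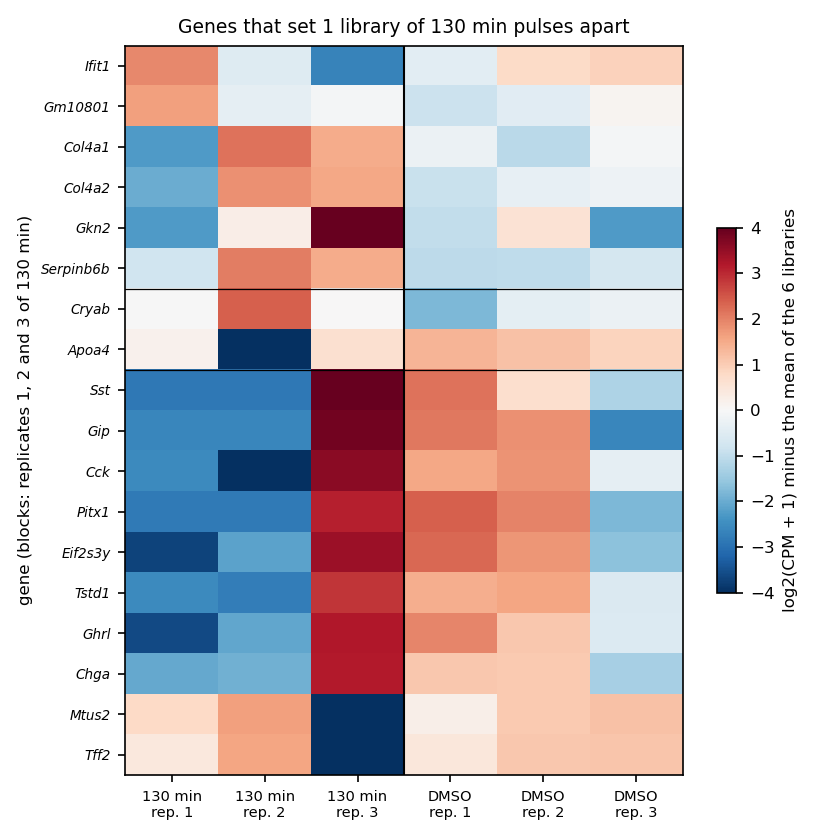
log2(CPM + 1) minus the mean of the 6 libraries for the genes named in the text among those farthest above or below the other pulsed libraries in replicates 1, 2 or 3. Columns are libraries, with 130 min pulses left of the line and DMSO right of it, and colour is cut at 4 on either side. The block of hormone genes of replicate 3 has the same columns high and low as Eif2s3y, with Chga at 167 CPM in replicate 3 of the pulses.

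At the shorter durations of 130 min pulses these lists stood elsewhere, though the difference between durations passed for no gene. Against their own DMSO libraries, the fetal-like list had a median of -0.30 at 24 h, -0.22 at 48 h and 0.87 at 72 h, with 0, 0 and 15 of its 26 members above every DMSO library, beside 3.42%, 3.80% and 7.33% of all genes. The enterocyte list had medians of 0.36, 0.39 and -0.57 at those times, and the antimicrobial list 0.48, 0.54 and -1.10. The immediate early list had medians of -0.10, 0.03 and 0.44.

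In the test of the difference between 72 and 48 h, 0 genes passed (smallest adjusted p 0.693 by edgeR with Benjamini-Hochberg adjustment) and 765 (6.67%) had an unadjusted p under 0.05, 387 of them positive (3.38%). Of the 26 fetal-like genes, 26 had a positive difference between 72 and 48 h, 13 with an unadjusted p under 0.05. Between 72 and 24 h, 0 genes passed (smallest adjusted p 0.441 by the same test), 1041 (9.08%) had an unadjusted p under 0.05, 500 of them positive (4.36%), and so did 15 of the 26, all positive. Both differences contain the 72 h libraries in which all 26 genes were already positive, so these counts are not separate from that result. The organoids of the 24, 48 and 72 h experiments had been passaged 3, 2 and 1 days before. Duration and the time from passage to the start of the experiment therefore cannot be told apart.

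**Figure D5:**
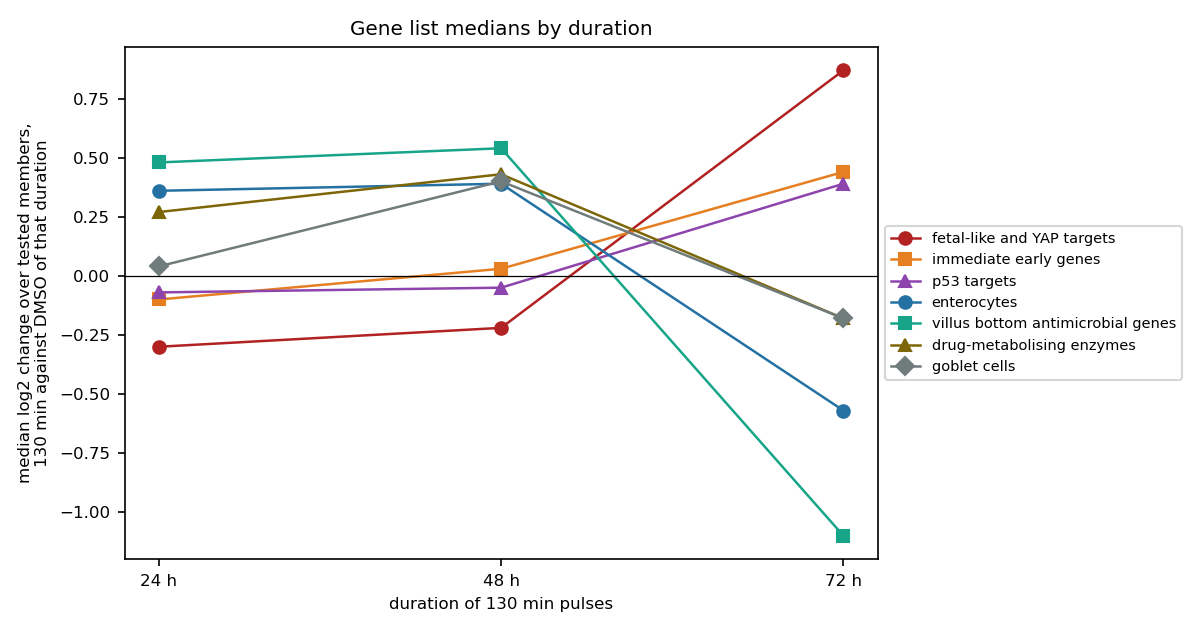
Median log2 difference of 7 gene lists between 130 min pulses and DMSO of the same duration, at 24, 48 and 72 h, over 3 libraries in each group. Lines join different samples and serve to follow a list. The fetal-like list has 0.87 at 72 h and -0.22 at 48 h, and the antimicrobial list has -1.10 and 0.54.

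The other periods at 72 h were compared with the same DMSO libraries, and with 130 min directly. The fetal-like list had medians of 0.32, 0.87 and 0.32 against DMSO for 90, 130 and 170 min, and the enterocyte list -0.11, -0.57 and -0.45. These 3 comparisons share their control libraries. Between 130 and 90 min 0 genes passed (smallest adjusted p 0.382 by edgeR with Benjamini-Hochberg adjustment), and 748 (6.53%) had an unadjusted p under 0.05. Between 130 and 170 min 0 genes passed (smallest adjusted p 0.887 by the same test), and 592 (5.16%) had an unadjusted p under 0.05. That test took the libraries as unpaired. Y-linked levels in replicates 1 to 3 at 48 h were 2.12, 357 and 322 CPM with 130 min, against 22.6, 388 and 340 CPM with 170 min. The order also matched at 24 h, and at 72 h replicate 3 was highest with both periods. Whether replicate numbers pair these samples was not tested. All 26 fetal-like genes stood higher with 130 than with 170 min, with a median of 0.51, and 24 of 26 stood higher with 130 than with 90 min, with a median of 0.63. These counts reuse the 130 min libraries of the comparison with DMSO and are not separate from it. The dose of DAPT differed with the period, at 1.38 µM for 90 min and 2 µM for 130 min, so period and dose cannot be told apart there. For 170 min the labels give more than 1 concentration.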

How the data were processed

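RNA of 20 to 50 pooled organoids per sample was sequenced with the Sort-seq method, per the labels' protocols. The deposited file is a table of whole-number counts per gene, which the authors made with STAR 2.7.8a and UMI-tools 1.1.1 (source: the submitters' processing notes). The sources used here do not give the build, annotation, strand setting or counting rule, so overlapping and antisense genes are uncertain. Samples were grouped by their titles. Of 34197 genes listed, 11462 passed edgeR's filterByExpr and were tested. Counts were TMM-normalised over all 36 libraries, whose totals ran from 482741 to 1447330, and fitted with edgeR 4.0.16 in R 4.3.3 (robust quasi-likelihood, 12 groups, 24 residual degrees of freedom), with Benjamini-Hochberg adjustment over all genes tested and a threshold of 0.05. CPM are counts scaled by the normalised library size over tested genes. List scores are means of log2(CPM + 1), with a pseudocount of 1. The biological coefficient of variation was 0.145. An exact permutation test of 3 against 3 samples cannot go below p = 0.1, so none was used for single genes. The fit was tested on simulated data. DESeq2 1.42.0, other scalings, filters, sets of libraries, a replicate block and covariates were alternatives.

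The comparison and the gene lists were chosen with earlier results of these data known. Genes were named by rule: the 10 in each direction with the smallest p among those whose groups did not overlap, up to 4 of smallest p in each list, a fixed panel, and 8 on each side that set a pulsed library apart among genes with a mean of at least 20 CPM. The other genes named, such as further list members, the Y-linked genes and the genes that passed in an alternative fit, were chosen after their values were seen. The Y-linked covariates and the lists without a library were added after seeing the data. Some genes that the rule names are not reported here.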

Additional observations from a re-analysis of the deposited data

How the results depend on the processing

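The counts of genes that passed, 0 higher and 0 lower, were also 0 with size factors by relative log expression, a non-robust fit, log2 library total or either Y-linked covariate, DESeq2, and with each of the 6 libraries left out (0 to 0). With no filter on low counts 23 passed as higher and 29 as lower, 2 for 130 against 170 min, 9 for 130 against 90 min, 11 for 72 against 48 h and 17 for 72 against 24 h. With the 6 libraries alone 12 passed as higher and 6 as lower, and with the 12 libraries at 72 h 1 as higher. Replicate numbers did not pair the 130 min and DMSO samples of 72 h: the correlations of deviations of same-numbered libraries were 0.02, 0.08 and -0.35. Pairing between 130 and 170 min was not tested. With the replicate block 2 passed as higher and 1 as lower, and with the replicate block on the 6 libraries alone 17 and 7. Genes above every DMSO library numbered 1244 to 1625, and those below 1204 to 1613, with a library left out, where a smaller group separates more easily. With no filter, where more genes are tested, 1346 lay below. Of the 80 genes named with a log2 difference, 4 turned direction: Hes1 at -0.07 with log2 library total, -0.02 with no filter and -0.04 to 0.10 with a library left out, Lgr5 at -0.69 to 0.06 with a library left out (0.06 without replicate 2 of the pulses), Atoh1 at -0.34 to 0.02 (0.02 without replicate 1) and Chga at -2.81 to 1.73 (-2.81 without replicate 3). The cause was not tested. The 6 libraries held 610977 to 1117763 counts, and detection by expression level was not tested.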
